A study of Mus musculus with 23 samples.

Results

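The V and J segments of the T cell receptor beta chain were read in lymph node (LN) T cells of mice with a Stat5b point mutation. The members were all TRBV and TRBJ labels carried by productive beta chain contigs in the 7 LN T cell receptor (TCR) libraries. There were 34 of them, 22 TRBV and 12 TRBJ, out of 165 segment labels of both receptor chains, and every library held all 34. Each barcode, the tag of 1 droplet and so nominally of 1 cell, was counted once. A barcode with 2 beta contigs was given the contig with more unique molecular identifiers (UMIs).

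All mice were labelled C57BL/6 and were 2 months old, and the edited allele was made in C57BL/6N zygotes. The groups were wild type (WT, n = 2), mice with the Stat5b Y665F allele labelled het (n = 3) and mice labelled Y665F homo (n = 2). STAT5B is a transcription factor activated by cytokine receptors. The Y665F change was knocked into the germline, so that it was present in all cells and not in T cells alone. The study speaks of lymph node samples combined from several mice of a group. How mice were spread over these libraries is not given in the sources used here, so the replicates are libraries and not mice. The edgeR count model pools the spread over segments or genes. Its p-values therefore also depend on cell numbers and can be smaller than the libraries alone would allow.

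A beta chain gene is assembled in the thymus by joining 1 V, 1 D and 1 J segment, with bases trimmed from the ends and random bases added at the joints by terminal transferase (Dntt). The V segment encodes the loops CDR1 and CDR2, which mostly face the MHC molecule. The CDR3 loop spans the joint from the conserved cysteine of V to the conserved phenylalanine of J and lies over the peptide. CD8 T cells recognise peptides on MHC class I and CD4 T cells on MHC class II, and the share of a V segment can differ between them.

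In GENCODE vM21 (GRCm38, the build of the expression files) the V genes behind the 22 labels spread over chr6:40891229-41558452 and the 12 J genes over chr6:41533864-41543856. All lie on the plus strand except Trbv31, which sits beyond the constant genes at chr6:41557691-41558452 on the minus strand and is joined by inversion. The 3′ ends of V segments with unequal use in CD8 and CD4 cells, 3 higher in each gate, are shown first, with that of TRBV20, whose CDR3s were short. The last is the end of Trbv4, the gene whose UMIs prevailed in cells labelled TRBV10. Those cells matched 12.4 of its 17 CDR3 bases on average. Each interval is that of the whole gene. Each run is the last 40 bases of the GENCODE transcript, and capitals mark the part that falls in the CDR3, as found by matching the contigs' CDR3s.
TRBV12-1, chr6:41113550-41114067: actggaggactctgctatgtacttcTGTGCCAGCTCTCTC
TRBV12-2, chr6:41118851-41119364: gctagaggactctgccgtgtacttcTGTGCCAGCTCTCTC
TRBV29, chr6:41271394-41271881: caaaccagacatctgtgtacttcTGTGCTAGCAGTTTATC
TRBV31, chr6:41557691-41558452: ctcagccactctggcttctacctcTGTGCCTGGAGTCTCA
TRBV2, chr6:41047340-41047995: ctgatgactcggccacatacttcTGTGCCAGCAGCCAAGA
TRBV5, chr6:41062332-41062803: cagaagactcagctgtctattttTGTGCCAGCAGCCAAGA
TRBV20, chr6:41188273-41188977: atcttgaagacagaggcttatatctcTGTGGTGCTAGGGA
TRBV10 (gene Trbv4), chr6:41059394-41059886: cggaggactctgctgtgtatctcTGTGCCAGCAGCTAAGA

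The germline J segments whose use differed between the gates, and the one with the longest CDR3s, TRBJ2-2, are given whole, with the interval of the transcript printed, on the plus strand, with the CDR3 part in capitals. Both D segments follow.
TRBJ2-1, chr6:41542754-41542803: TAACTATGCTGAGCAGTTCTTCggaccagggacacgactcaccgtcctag
TRBJ2-7, chr6:41543810-41543856: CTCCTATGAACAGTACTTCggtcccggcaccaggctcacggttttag
TRBJ2-4, chr6:41543362-41543410: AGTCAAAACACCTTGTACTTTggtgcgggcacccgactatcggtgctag
TRBJ1-3, chr6:41534323-41534372: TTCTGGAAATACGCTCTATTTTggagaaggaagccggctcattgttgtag
TRBJ2-2, chr6:41542957-41543007: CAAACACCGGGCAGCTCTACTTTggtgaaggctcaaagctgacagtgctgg
TRBD1, chr6:41533201-41533212: gggacagggggc
TRBD2, chr6:41542163-41542176: gggactgggggggc

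The libraries held 3150 to 6300 barcodes with a productive beta chain, 30412 in all, with a median of 10 to 12 beta UMIs per barcode. A second beta contig was present in 4.25 to 6.65% of them. Between 94.96 and 99.05% of the barcodes were also in the expression matrix of the same mouse group and replicate, against at most 1.602% in that of any other library. Pairs of libraries shared 12 to 39 beta barcodes, and none of these had the same CDR3 in both. Median expression UMIs per barcode ranged from 368 (Y665F het replicate 3) and 395 (Y665F homo replicate 1) to 3116 (Y665F het replicate 1).

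The contig labels were checked against the UMIs of Trbv genes in the expression matrices, in cells with 1 beta chain. For 20 of the 22 labels the most frequent Trbv gene was the gene of the label. Cells labelled TRBV10 carried UMIs of Trbv4 instead, 358 of 485 Trbv UMIs, and GENCODE lists Trbv10 as a pseudogene. Cells with the joint label TRBV12-2+TRBV13-2 carried Trbv13-2 in 90.5% of their Trbv UMIs and Trbv12-2 in 5%. The gene of the label took only 65.3% of the UMIs in TRBV5 cells, of which 16.6% had any Trbv UMI. The labels are kept here as deposited.

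Use was broad, and TRBV3 was the most used V label by its mean over the libraries, in 9.11 and 8.10% of WT cells, 8.37, 8.76 and 8.54% of Y665F het cells and 7.98 and 8.88% of Y665F homo cells. Its 95% Wilson interval in WT replicate 1 ran from 8.19 to 10.1%, which covers counting error only. The TRBV3 groups overlapped.

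The joint label TRBV12-2+TRBV13-2 came next, with 7.71 and 8.10% in WT, 7.64, 8.60 and 7.57% in Y665F het, and 8.24 and 7.21% in Y665F homo. Joined to TRBV13-2, whose gene its cells mostly carried, it made 9.12 to 10.35% and stood above TRBV3 in 7 of 7 libraries. TRBV1, the most upstream of the V genes seen, took 5.63 and 6.56% in WT, 7.08, 6.79 and 6.52% in Y665F het, and 7.88 and 6.82% in Y665F homo. Both Y665F homo values of TRBV1 lay above both WT values. Homo and WT did not overlap for 13 of 22 TRBV and 5 of 12 TRBJ segments, and het and WT for 10 and 4. Alpha segments were not counted in this way. With so few libraries a group, values can lie apart without a genotype difference, so these counts are descriptions only. TRBV19 took 7.39 and 6.86% in WT, 6.60, 5.78 and 6.60% in Y665F het, and 7.11 and 6.21% in Y665F homo. TRBV5 took 7.24 and 7.16% in WT, 6.21, 6.06 and 6.11% in Y665F het, and 5.83 and 6.70% in Y665F homo, so that all mutant libraries lay below WT. TRBV16 took 6.04 and 5.57% in WT, 5.85, 6.06 and 6.89% in Y665F het, and 6.63 and 6.94% in Y665F homo.

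The rarest V segments were TRBV30, at 0.159 to 0.352% of the cells, and TRBV23, at 0.599 to 0.714%. As a family, TRBV13 (4 labels, the joint one included) supplied 20.3 to 23.1% of the cells and TRBV12 (TRBV12-1 and TRBV12-2) 8.05 to 10.55%.

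TRBJ2-7 was the most used J segment in every library. It took 18.9 and 19.0% of WT cells, 19.4, 21.6 and 21.01% of Y665F het cells and 20.3 and 19.6% of Y665F homo cells, all mutant values lying above WT. TRBJ2-5 took 13.3 and 12.9% in WT, 12.9, 13.2 and 13.5% in Y665F het, and 13.7 and 13.2% in Y665F homo. TRBJ2-1 took 9.96 and 11% in WT, 11.3, 10.98 and 10.9% in Y665F het, and 11.2 and 9.90% in Y665F homo, and the groups overlapped for both. At the other end TRBJ1-5 took 2.65 to 3.22%. The 6 TRBJ1 segments together took 29.9 to 34.5% and the 6 TRBJ2 segments 65.5 to 70.1%.

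The constant segment followed the J cluster without exception. The 9777 cells with a TRBJ1 segment had TRBC1 in 9534 and TRBC2 in 0, and the 20635 cells with a TRBJ2 segment had TRBC2 in 20519 and TRBC1 in 0. The rest had no constant label. TRBD2 lies between the J clusters, downstream of TRBJ1, and was named in 17 of the TRBJ1 cells against 2366 of the TRBJ2 cells, where TRBD1 was named in 2649. A D segment was named in 20.3% of TRBJ1 and 24.3% of TRBJ2 cells.

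**Figure D1:**
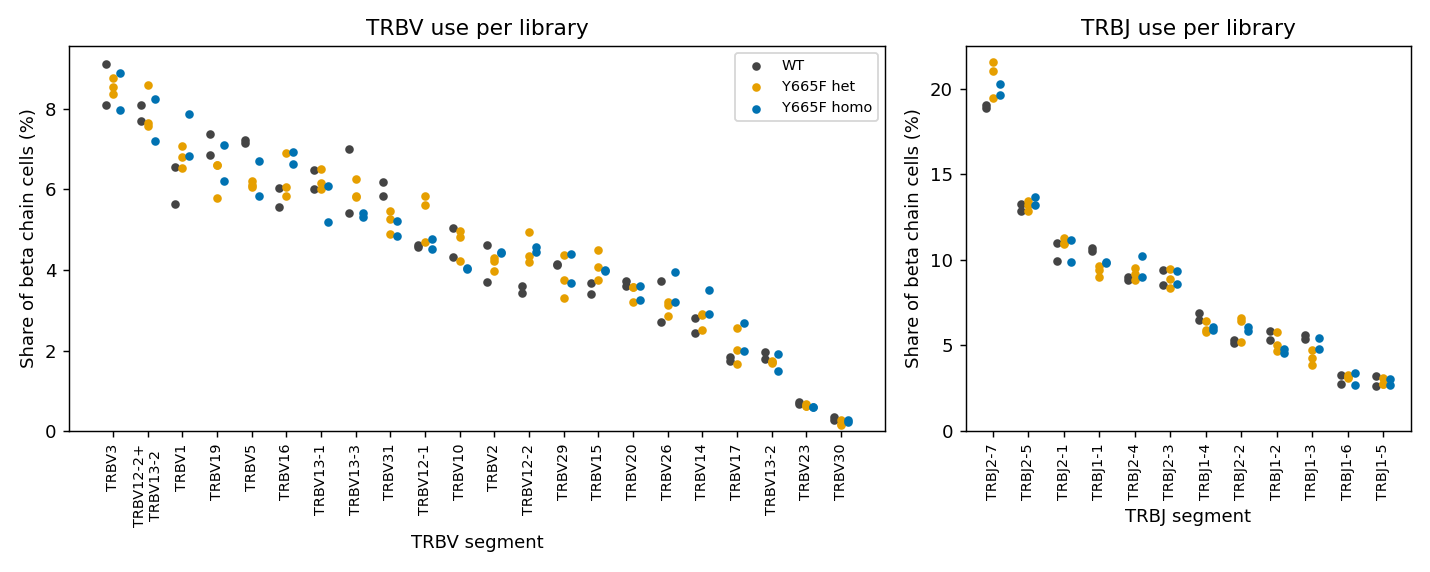
Share of beta chain cells in percent (y axis) for each TRBV and TRBJ segment (x axis, ordered by mean share), with 1 point per library and colours for WT, Y665F het and Y665F homo. TRBV3 and TRBJ2-7 head the lists, and for TRBV12-2, at 3.43 and 3.60% in WT and 4.19 to 4.93% in the mutant libraries, the WT points lie below those of both mutant genotypes, which overlap. Homo and WT points were apart for 13 of 22 TRBV and 5 of 12 TRBJ segments, a description that was not set against the alpha segments.

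To compare CD8 with CD4 cells, barcodes were joined to the expression matrices. A cell was gated as CD8 with at least 1 UMI of Cd8a or Cd8b1 and none of Cd4, and as CD4 with at least 1 UMI of Cd4 and none of the other two. This gave 11859 CD8 cells, 1222 to 2405 per library, and 3513 CD4 cells, 186 to 942 per library. Between 20.2 and 65.5% of the cells in a library had a UMI of neither. Markers outside the gate went with it: Nkg7, a cytotoxic granule gene, ran at 708 to 1134 CPM (UMIs of a gene scaled to a common library total) in CD8 and 8.42 to 46.1 CPM in CD4 gated cells, and Cd40lg, a helper ligand, at 1.10 to 5.24 and 36.5 to 102 CPM. The B cell receptor subunit Cd79a stood at 26.2 to 92.6 CPM in CD8 and 31.5 to 146 CPM in CD4 gated cells. The summed myeloid markers Lyz2 and Cst3 stood at 90.03 to 129 CPM in CD8 and 75.2 to 127 CPM in CD4 gated cells. Lyz2 was at 0 in 6 of 7 libraries in each gate, where the sum was Cst3 alone. The part of B cell or myeloid RNA in the segment shares was not tested. No doublet caller was run, and 186 cells with UMIs of both Cd4 and Cd8 were left out of the gates.

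V segment use differed widely between the gates within a library. TRBV12-1, TRBV12-2, TRBV29, TRBV14 and TRBV17 were 3.10 to 7.94 times as frequent in CD8 as in CD4 cells, and TRBV31 and TRBV2 were 3.11 and 2.58 times as frequent in CD4 cells. Of the 33 beta segments tested with edgeR (quasi-likelihood, library as a block), 19 passed an adjusted p of 0.05, 15 of 21 TRBV and 4 of 12 TRBJ. Among all alpha and beta segments, these 33 included, 46.7% of 135 passed, a share below that of the TRBV and above that of the TRBJ segments. Of the 19 beta calls, 6 TRBV and 2 TRBJ were higher in CD8 cells, where 23.7% of all segments were, and 9 TRBV and 2 TRBJ were lower, where 23% were. The median log2 fold was -0.18 over the beta segments and -0.09 over all segments. With TMM factors the median over all segments moved to 0.08 and the beta calls split into 11 higher and 8 lower, with 16 of the 19 kept. Without the 2 libraries of lowest UMI depth, Y665F het replicate 3 and homo replicate 1, 19 beta segments were called, 18 of them shared with the full set. The filter on low counts asked for at least 10 cells in at least 2 columns, 1 per library and gate. A segment could therefore be tested through the gate where it was high. Without this filter 34 beta segments were tested and the same 19 were called.

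TRBV12-1 made the largest difference. It was used by 7.78, 8.45 and 9.65% (lowest, median and highest of 7 libraries) of CD8 cells and by 0.858, 1.01 and 1.61% of CD4 cells. The ranges were far apart, and the log2 fold was 2.99 (SE 0.159, edgeR adjusted p = 1.18e-63). Its sister TRBV12-2, with which it shares the whole CDR3 part of the germline end shown above, followed with 5.98, 6.96 and 7.45% of CD8 and 0.903, 1.29 and 2.69% of CD4 cells (log2 fold 2.26, SE 0.161, edgeR adjusted p = 1.20e-38). Together the TRBV12 family took 13.9 to 16.9% of CD8 and 1.81 to 4.30% of CD4 cells.

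TRBV29 took 4.84, 6.24 and 6.94% of CD8 cells and 0.858, 1.49 and 2.02% of CD4 cells, a log2 fold of 2.13 (SE 0.163, edgeR adjusted p = 5.12e-34). TRBV14 took 3.98, 4.17 and 4.55% against 0.743, 1.29 and 1.83%, a log2 fold of 1.73 (SE 0.192, edgeR adjusted p = 2.97e-17). TRBV17 took 2.31, 2.74 and 3.37% against 0, 0.833 and 1.29%, a log2 fold of 1.63 (SE 0.240, edgeR adjusted p = 1.99e-10). The value of 0 was in Y665F homo replicate 1, where 0 of 186 CD4 cells allows a share of up to 1.61%. TRBV17 had 0 to 11 CD4 cells per library and passed the filter on low counts through its CD8 cells. For all 5 V segments the lowest CD8 library lay above the highest CD4 library. TRBV16 rose more weakly, by 0.41 on the log2 scale (edgeR adjusted p = 0.000922), and was higher in CD8 cells in 7 of 7 libraries although the ranges overlapped.

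On the CD4 side TRBV31, the segment joined by inversion, took 5.36, 8.59 and 9.52% of CD4 cells and 1.96, 2.62 and 3.16% of CD8 cells (log2 fold -1.64, SE 0.122, edgeR adjusted p = 8.96e-36). TRBV2 took 5.41, 6.57 and 7.76% of CD4 and 2.44, 2.45 and 3.31% of CD8 cells (log2 fold -1.37, SE 0.131, edgeR adjusted p = 1.71e-22). TRBV5, whose germline CDR3 end is the same as that of TRBV2, took 6.65, 8.57 and 12.9% of CD4 and 4.31, 4.88 and 5.77% of CD8 cells (log2 fold -0.87, SE 0.101, edgeR adjusted p = 2.44e-15). For these 3 segments no CD8 library reached the lowest CD4 library.

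The rare TRBV23 took 0.451 to 2.02% of CD4 and 0.374 to 0.900% of CD8 cells (log2 fold -0.98, edgeR adjusted p = 0.00667). WT replicate 1 ran the other way, with 0.900% of CD8 and 0.451% of CD4 cells, and in 5 of 18 alternatives TRBV23 did not pass the filter on low counts and was not tested. TRBV13-2 took 1.81, 2.28 and 4.04% of CD4 and 1.01, 1.40 and 1.598% of CD8 cells, with no overlap (log2 fold -0.82, SE 0.212, edgeR adjusted p = 0.000413). Joined with the shared label it took 8.35, 10.96 and 12.4% of CD4 and 8.45, 8.75 and 10.4% of CD8 cells, which overlap, and the log2 fold was then -0.24 (SE 0.0815, edgeR adjusted p = 0.0146). TRBV20 took 2.02, 4.35 and 5.42% of CD4 and 1.96, 2.57 and 2.91% of CD8 cells (log2 fold -0.72, SE 0.151, edgeR adjusted p = 8.87e-06). TRBV26, TRBV3 and TRBV1 had log2 folds of -0.62, -0.61 and -0.40, and of these TRBV3 had gates that did not overlap. TRBV13-2 was lower in CD8 cells in 7 of 7 libraries, whereas the joint label, which by its UMIs is mostly Trbv13-2, had a log2 fold of -0.11 (edgeR adjusted p = 0.335), and TRBV13-1 and TRBV13-3 had log2 folds of 0.26 each (edgeR adjusted p = 0.0558 and 0.0539). With gates of at least 2 UMIs, which hold fewer cells, TRBV16, TRBV1 and TRBV13-2 had log2 folds of 0.39, -0.49 and -0.66 with SEs of 0.213, 0.198 and 0.371 and no longer passed (edgeR adjusted p = 0.180, 0.0508 and 0.190). With TMM factors TRBV1 had a log2 fold of -0.22 (edgeR adjusted p = 0.0800).

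**Figure D2:**
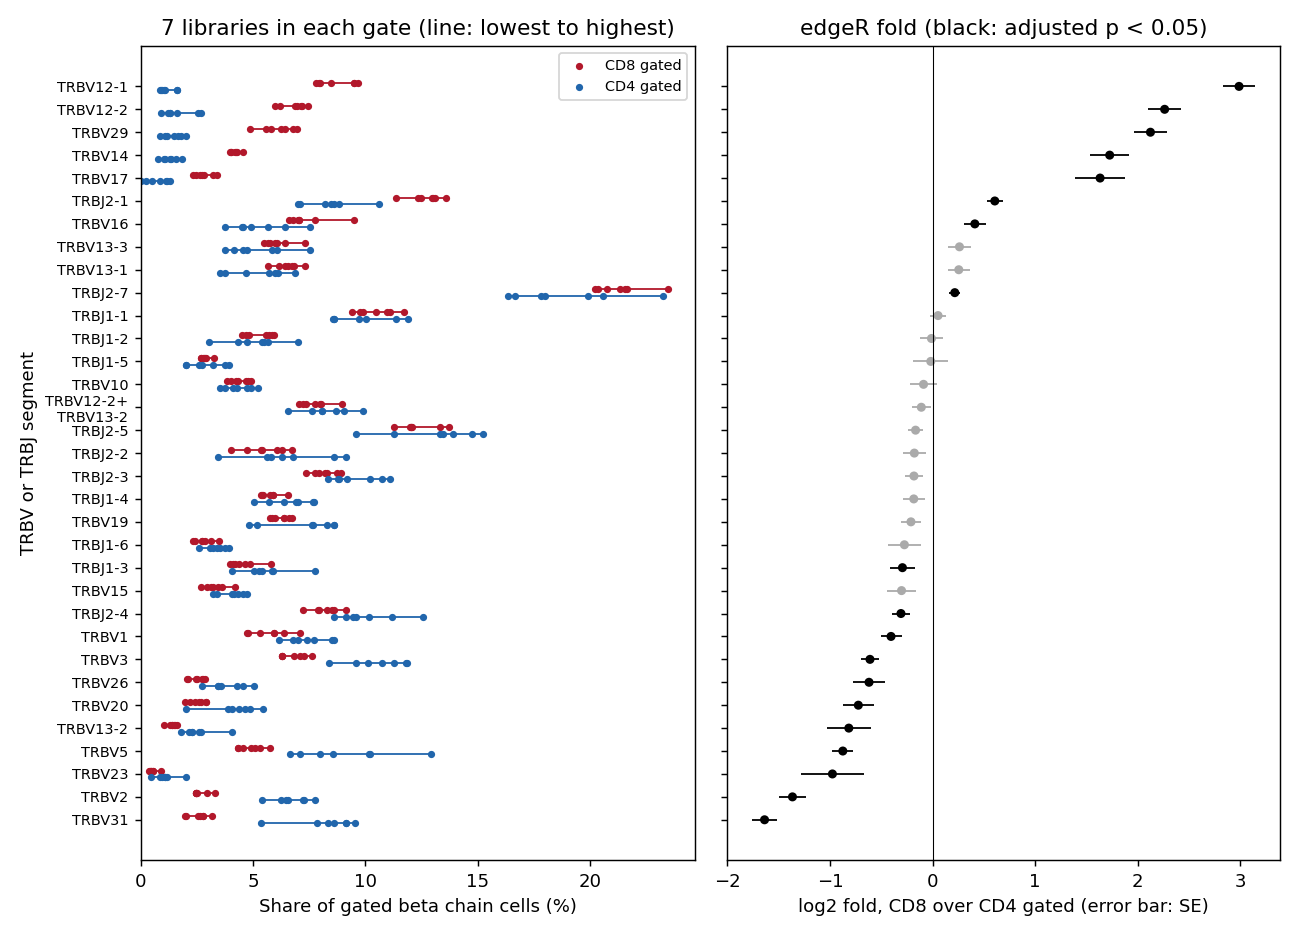
Left, share of CD8 gated and CD4 gated beta chain cells in percent for each segment, with 1 point per library and a line from the lowest to the highest. Right, the edgeR log2 fold of CD8 over CD4 with its SE, black where the adjusted p is under 0.05. TRBV12-1 at 2.99 and TRBV31 at -1.64 mark the ends.

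Among J segments TRBJ2-1 was the one with separate ranges. It took 11.4, 13.0 and 13.6% of CD8 cells and 6.99, 8.45 and 10.6% of CD4 cells (log2 fold 0.61, SE 0.0796, edgeR adjusted p = 8.57e-11). With the V mix of both gates held at that of all cells, the CD8 share still exceeded the CD4 share in 7 of 7 libraries, by 2.55 to 6.38 percentage points. Held in the same way, TRBJ2-7 was higher in CD8 cells in 5 of 7 libraries, TRBJ2-4 in 0 and TRBJ1-3 in 2. TRBJ2-7, which took 20.2 to 23.5% of CD8 and 16.3 to 23.2% of CD4 cells, rose by 0.22 on the log2 scale (edgeR adjusted p = 0.00199). TRBJ2-4 was lower in CD8 cells in 7 of 7 libraries (log2 fold -0.31, edgeR adjusted p = 0.00234), a call lost with TMM factors, where the log2 fold shrank to -0.12 (edgeR adjusted p = 0.281), and with gates of at least 2 UMIs, where it was -0.32 (edgeR adjusted p = 0.159). That of TRBJ2-7 was lost with DESeq2 (adjusted p = 0.0816). TRBJ1-3 had a log2 fold of -0.29 (edgeR adjusted p = 0.0385) and kept its call in 11 of 18 alternatives. It lost the call without WT replicate 2, het replicate 1 or homo replicate 2, with log2 folds of -0.28, -0.30 and -0.22 (edgeR adjusted p = 0.0939, 0.0642 and 0.178). With TMM factors its log2 fold shrank to -0.11 (edgeR adjusted p = 0.464). The call was also lost with DESeq2 (adjusted p = 0.141), with gates of at least 2 UMIs (edgeR adjusted p = 0.181) and without het replicate 3 and homo replicate 1 (edgeR adjusted p = 0.0602). The TRBJ1 cluster as a whole took 30.1 to 34.9% of CD8 and 27.3 to 36.7% of CD4 cells. The mean difference of -1.68 percentage points, negative in 6 of 7 libraries, gave p = 0.109 in the exact two-sided sign-flip permutation test (adjusted p = 0.305 over 6 tests).

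In cells with neither marker TRBV12-1 took 1.63 to 4.18%, TRBV31 5.60 to 8.17% and TRBV2 4.57 to 5.83%. The TRBV12 family took 2.65 to 8.30% of them, against 13.9 to 16.9% of CD8 and 1.81 to 4.30% of CD4 gated cells. The lineage of the cells with neither marker was not tested. The ratio that follows is therefore one of gated cells and not of all T cells in a library. The CD8 to CD4 ratio of gated cells was 2.76 and 2.55 in WT, 2.29, 3.25 and 6.98 in Y665F het, and 9.09 and 3.92 in Y665F homo, and the libraries with the highest ratios, Y665F het replicate 3 and homo replicate 1, were those with the fewest UMIs per barcode.

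No beta segment differed between the genotypes past the threshold. For Y665F homo against WT, edgeR called 0 of 34 beta segments, with 9 at an unadjusted p under 0.05, and DESeq2 called 0 with 0 at that level. Over all alpha and beta segments 0.641% of 156 were called, a single alpha segment. For Y665F het against WT 0 were called, with 8 at an unadjusted p under 0.05 (0% of 156 segments called), and for Y665F homo against het 0, with 2 at that level (0% of 156). DESeq2 called 0 in both. The median absolute log2 fold of the beta segments was 0.13 for homo against WT and 0.07 for homo against het, with a median SE of 0.11 and 0.10.

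The segment with the lowest p was TRBV12-2, with 3.60 and 3.43% in WT, 4.34, 4.19 and 4.93% in Y665F het, and 4.57 and 4.44% in Y665F homo. All 5 mutant libraries lay above WT, while homo and WT were apart for 13 of 22 TRBV segments, het and WT for 10. The log2 fold was 0.37 for homo against WT (SE 0.117, edgeR adjusted p = 0.118) and 0.38 for het against WT (SE 0.111, edgeR adjusted p = 0.118). TRBV31, of the opposite gate bias, had 5.83 and 6.19% in WT, 5.26, 4.89 and 5.47% in Y665F het, and 4.85 and 5.22% in Y665F homo. Here all mutant libraries lay below WT, and the log2 fold for homo against WT was -0.27 (SE 0.0991, edgeR adjusted p = 0.228). TRBJ1-3 had the lowest p among J segments in het against WT, with a log2 fold of -0.34 (SE 0.103, edgeR adjusted p = 0.118).

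In the CD8 gate these values were smaller. Expression in this gate also differed, with the chemokine gene Ccl5 at 255 and 200 CPM in WT and 970 to 1609 CPM in Y665F het. In Y665F homo it stood at 2037 and 2815 CPM. The part of this in the segment values was not tested. In CD8 gated cells the homo against WT log2 fold was 0.03 for TRBV12-2, -0.02 for TRBV31 and -0.03 for TRBV5, which in all cells had been 0.37, -0.27 and -0.21. In the smaller CD4 gate it was 0.72 for TRBV12-2, with an SE of 0.57, and 0.19 for TRBV31, with an SE of 0.25. For these 3 segments the whole-library value had the sign of the CD8 to CD4 fold. Of the 19 segments called between the gates, 13 shared that sign and 6 did not, namely TRBV1, TRBV2, TRBV26, TRBV29, TRBJ2-1 and TRBJ2-4, and TRBV12-1, with the largest gate fold, stood at 0.02. The part of the gate ratio in these values was not tested. TRBV1 had a log2 fold of 0.25 in all cells and 0.39 in CD8 gated cells (edgeR adjusted p = 0.228 and 0.198). In WT it took 4.75 and 5.32% of CD8 against 6.77 and 8.49% of CD4 cells, in Y665F homo 7.10 and 6.35% against 6.99 and 6.16%, and in Y665F het 5.92, 5.94 and 4.77% against 7.38, 7.73 and 8.59%. Its share was lower in CD8 cells in the WT and het libraries and not in the homo libraries. Tested as an interaction, the difference from WT was 0.66 on the log2 scale for homo (SE 0.289, edgeR adjusted p = 0.588) and 0.20 for het (edgeR adjusted p = 0.958). Of the beta segments TRBV17 had the lowest unadjusted interaction p for homo, with a log2 value of 2.99 and an SE of 1.15 (edgeR adjusted p = 0.462), and its CD4 shares in the homo libraries were 0 and 0.228%. A fitted value against a library at 0 depends on the prior count. TRBJ2-2 had an interaction of 0.67 (SE 0.317, edgeR adjusted p = 0.752) and, in CD8 gated cells, a homo against WT log2 fold of 0.40 (SE 0.144, edgeR adjusted p = 0.198). In CD8 gated cells 0 of 33 beta segments were called, with 3 at an unadjusted p under 0.05 (0% of 134 segments called), and DESeq2 called 0. In CD4 gated cells 0 of 29 were called by either tool, with 0 at an unadjusted p under 0.05 (0% of 92 segments called). The difference between genotypes in the CD8 against CD4 fold, tested as an interaction, gave 0 of 33 calls in edgeR and in DESeq2, with 3 and 1 at an unadjusted p under 0.05 (0% of 135 segments called). These comparisons had a median SE of 0.14 in CD8, 0.28 in CD4 and 0.33 for the interaction on the log2 scale.

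**Figure D3:**
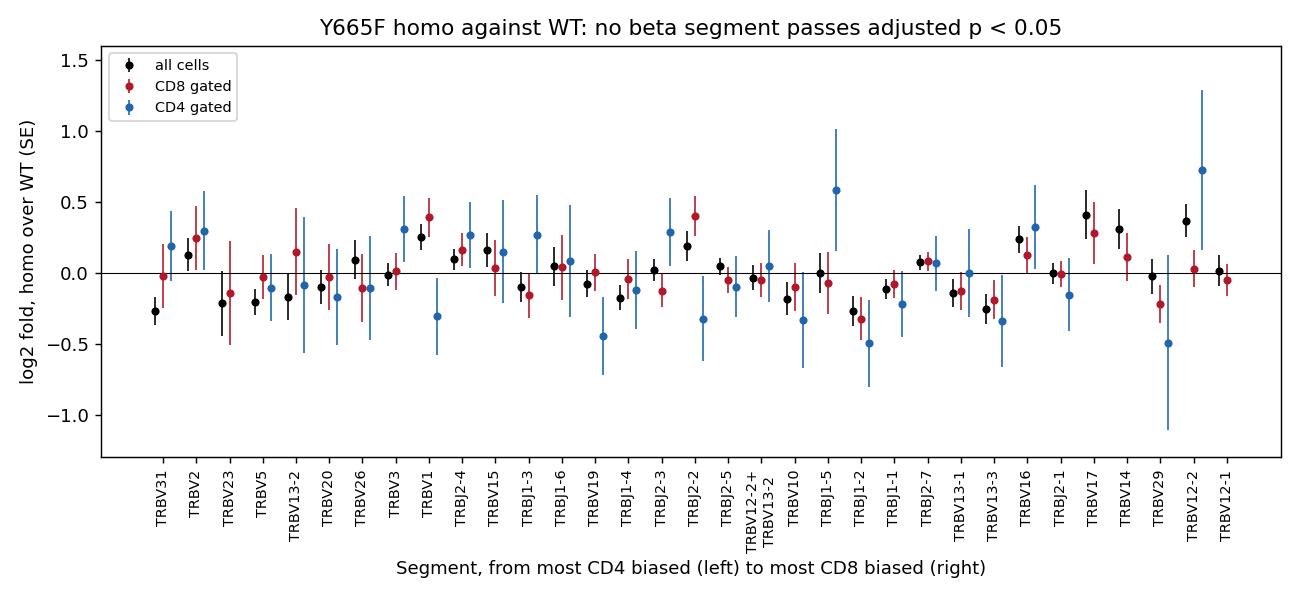
The log2 fold of Y665F homo over WT with its SE (y axis) for each segment, ordered from the most CD4 biased to the most CD8 biased (x axis), in all cells and in CD8 and CD4 gated cells. None of the points passed the adjusted threshold, and the all-cell values of TRBV31 at -0.27 and TRBV12-2 at 0.37 shrink to -0.02 and 0.03 in the CD8 gate.

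Beta CDR3s had a mean of 13.8 amino acids and a range of 5 to 20, and 92.2% were 12 to 16 long. The library means were 13.89 and 13.86 in WT, 13.88, 13.80 and 13.83 in Y665F het, and 13.85 and 13.83 in Y665F homo. Both homo libraries lay below both WT libraries and het overlapped WT. The homo minus WT difference was -0.04 amino acids, and ran from -0.0514 to -0.0189 with single libraries left out. The exact two-sided permutation test over the genotype order gave p = 0.438 (adjusted p = 0.526), where the smallest possible p was 0.00952. In CD8 gated cells all 5 mutant libraries, at 13.82 to 13.89, lay below WT, at 13.93 and 13.91. The homo minus WT difference there was -0.06 (exact permutation p = 0.152, adjusted p = 0.305). In CD4 gated cells it was -0.06 (exact permutation p = 0.648, adjusted p = 0.648) and reversed to 0.11 with gates of at least 2 UMIs. The TRBJ1 share over the genotype order, 34.5 and 34.2% in WT, 32.5, 29.9 and 30.3% in Y665F het and 30.5 and 32.6% in Y665F homo, gave an exact p of 0.438 (adjusted p = 0.526). Both mutant groups lay below WT, without following the order.

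Mean length was spread more widely over the segments than over the libraries. By J segment the mean ran from 13.20 ± 0.0918 amino acids (SD, n = 7 libraries) for TRBJ2-7, which brings 19 germline bases into the CDR3, to 14.63 ± 0.0609 for TRBJ2-2, which brings 23. By V segment it ran from 13.03 ± 0.103 for TRBV20, with 14 germline bases, to 14.43 ± 0.0940 for TRBV5, with 17. The V means did not follow germline length throughout: TRBV29, also with 17, had 13.58, and TRBV3, with 21, had 13.93. The J segment with the longest germline part, TRBJ1-6 with 25 bases, had a mean of 14.26 and lost 4.35 bases on average, the most of the J segments.

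**Figure D4:**
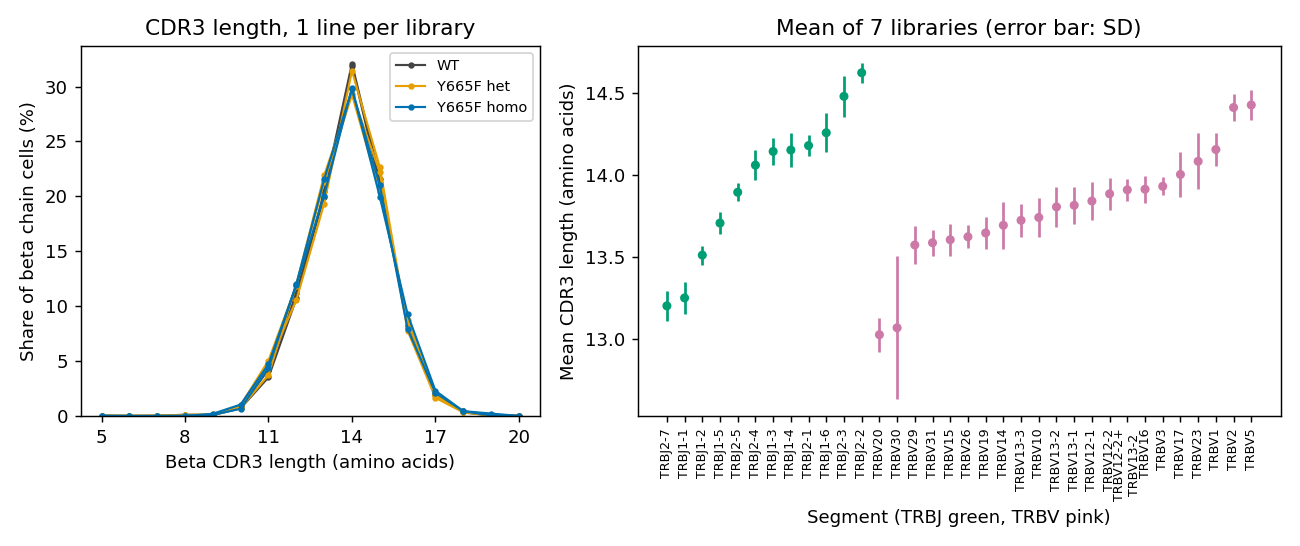
Left, distribution of beta CDR3 length in amino acids (x axis) as a share of cells in percent (y axis), 1 line per library. Right, mean length for each TRBJ and TRBV segment as mean and SD of 7 libraries, from 13.20 for TRBJ2-7 to 14.63 for TRBJ2-2 among J segments. The library curves lie over each other while the segments are spread.

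CDR3s were taken apart by matching their start to the V end and their finish to the J start, base by base, in 99.8% of the cells with at least 6 matched bases on each side. What was left unmatched, the middle, holds the D bases and the added bases, less any that match by chance. Per library the matched V part averaged 13.6 to 13.7 bases, the middle 9.64 to 9.88 and the J part 18.1 to 18.2. The middle was 8.54 to 9.01 bases with TRBJ1 and 10.1 to 10.47 with TRBJ2, with no overlap between libraries. For the 3 most used pairs the nucleotide CDR3 seen in most libraries is shown, with the middle in capitals. Each was found in 2 cells, 1 in each of 2 libraries, and the 6 bases of the first lie within TRBD1.
TRBV12-2+TRBV13-2 with TRBJ2-7: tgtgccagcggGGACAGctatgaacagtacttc
TRBV3 with TRBJ2-7: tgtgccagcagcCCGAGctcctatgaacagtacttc
TRBV5 with TRBJ2-7: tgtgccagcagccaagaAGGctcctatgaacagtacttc

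CD8 gated cells had CDR3s longer by 0.05 ± 0.0462 amino acids (SD, n = 7 libraries) than CD4 gated cells, in 6 of 7 libraries. The exact two-sided sign-flip permutation test gave p = 0.0312 and did not pass after adjustment (adjusted p = 0.188 over 6 tests). With gates of at least 2 UMIs the difference was -0.03. The parts moved in opposite ways. The unmatched middle was longer in CD8 cells in 7 of 7 libraries, by 0.20 to 0.67 bases with a mean of 0.38 ± 0.165 (SD, n = 7). The matched V part was shorter in 7 of 7, with a mean difference of -0.13 bases. That part averaged 13.3 bases for TRBV12-1 and TRBV12-2, 13.0 for TRBV29, 12.9 for TRBV14 and 14.2 for TRBV17, all higher in CD8 cells. It averaged 15.5 for TRBV2, 15.3 for TRBV5 and 12.4 for TRBV31, all higher in CD4 cells. V use was not held fixed for the V part, and its share in that difference was not tested. For the middle, chosen after its values were seen, the exact sign-flip permutation p was 0.0156, the smallest that 7 libraries allow. The difference was 0.31 with TRBJ use held fixed and 0.33 with TRBV use held fixed, each in 7 of 7 libraries, and 0.12 with the stricter gates, in 5 of 7 (exact permutation p = 0.656), where CD4 cells numbered 9 to 359 per library.

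**Figure D5:**
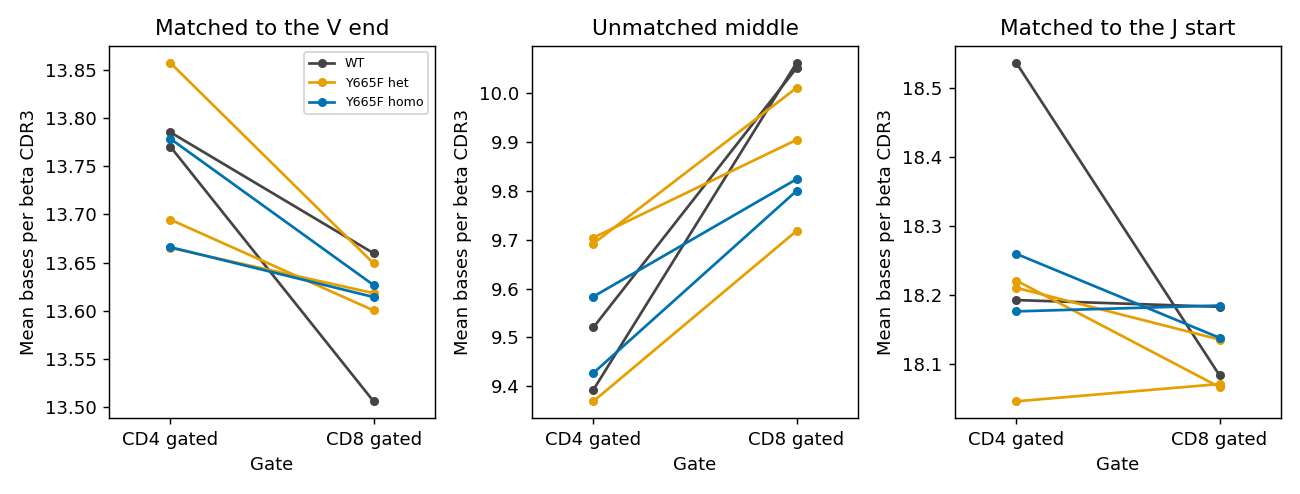
Mean bases per beta CDR3 (y axis, not from 0) matched to the V end, unmatched in the middle and matched to the J start, in CD4 and CD8 gated cells (x axis), with 1 line per library. The middle rises from CD4 to CD8 in all 7 libraries, by 0.20 to 0.67 bases, and the V part falls in all 7. V use is not held fixed.

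Trb genes were also read as UMIs in the expression matrices, summed over cells with a productive beta contig. Of 24 Trb genes tested, edgeR called 1 for Y665F homo against WT, while 3.18% of all 10627 genes were called. The called gene was Trbv14, at 28.5 and 33.5 CPM in WT, 35.3, 37.1 and 44.1 CPM in Y665F het, and 43.7 and 56.8 CPM in Y665F homo. All mutant libraries lay above WT (log2 fold 0.79, SE 0.151, edgeR adjusted p = 0.0124). The call was lost without WT replicate 1 (log2 fold 0.72, edgeR adjusted p = 0.0747), without WT replicate 2 (log2 fold 0.90, edgeR adjusted p = 0.0836) and without homo replicate 2, where the log2 fold fell to 0.51 (edgeR adjusted p = 0.246). The share of cells with a TRBV14 contig had a smaller log2 fold of 0.31 (edgeR adjusted p = 0.287). The median log2 fold was 0.01 over the Trb genes and -0.004 over all genes.

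Of 16 listed genes of the receptor and its assembly, 13 were tested. Of these 1 rose and 0 fell, against 203 and 135 of all 10627 genes. Cd8b1, the CD8 beta chain, went from 541 and 541 CPM in WT to 695, 698 and 712 CPM in Y665F het and 811 and 684 CPM in Y665F homo (log2 fold 0.52, SE 0.111, edgeR adjusted p = 0.0209). That call was lost without WT replicate 1, WT replicate 2 or homo replicate 1, with log2 folds of 0.55, 0.49 and 0.43 (edgeR adjusted p = 0.101, 0.209 and 0.151). Cd8a had a log2 fold of 0.36 (edgeR adjusted p = 0.0956) and Cd4 of -0.39 (edgeR adjusted p = 0.123). In summed cells, fewer cells of a type and less RNA per cell cannot be told apart. The constant genes Trbc1 and Trbc2 had log2 folds of -0.31 and -0.22 (edgeR adjusted p = 0.356 and 0.496), and the CD3 subunit Cd3d of 0.31 (edgeR adjusted p = 0.168). Dntt stood at 1.86 to 4.14 CPM. The recombinase genes Rag1 and Rag2 and the pre-receptor chain Ptcra were too low to be tested.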

How the data were processed

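The authors made single-cell expression and TCR libraries with 10x Genomics chemistry and processed them with Cell Ranger (5.0 in the submitters' processing notes, while the methods name a later version). The methods name a 5′ kit with TCR enrichment and the labels a 3′ kit. Build mm10 is GRCm38, and the V(D)J reference is not given in the sources used here. The deposited contig tables hold read and UMI counts per contig, all productive, full length and in called cells, and the deposited matrices hold raw UMI counts. Other tissues were not analysed here.

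Members, gene lists and tests were chosen with earlier results of these data known. Barcodes per segment were tested with edgeR 4.0.16 (quasi-likelihood, offset: log total per chain; segments with at least 10 cells in at least 2 libraries; Benjamini-Hochberg over all alpha and beta segments), expression sums with edgeR (TMM, filterByExpr), and library values by exact permutation (210 genotype orders or 128 sign patterns). In the fits of both gates the filter on cell numbers took each gate of a library as its own column. The SE beside an edgeR fold was worked back from the test, as the absolute log2 fold over the square root of the F statistic. Such SEs are approximate and can be smaller than counting error. R 4.3.3, DESeq2 1.42.0, Python 3.11.15, pandas 2.3.3 and scipy 1.17.1 were used. Full values are given for the 6 TRBV and 3 TRBJ segments with the highest mean share and for up to 6 called segments per direction; the TRBV12-2, TRBV31 and TRBV1 genotype values, the germline parts and the unmatched middle were chosen after their values were seen. In data simulated for homo against WT, 66.7% of segments changed 1.5-fold and 80% changed 2-fold were recovered (18 and 20 changed among 151 and 154, with 7.69% and 15.8% of calls false), as were 28.3% of genes changed 2-fold and 95% changed 4-fold (10582 genes). The simulated spread was a fixed setting and was not estimated from these libraries. Changed segments were drawn from alpha and beta segments of the all-cell counts. Recovery for the beta segments alone or in the gated fits was therefore not measured. Replicate numbers were not taken as pairs.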

Additional observations from a re-analysis of the deposited data

How the results depend on the processing

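For CD8 against CD4 gated cells, 14 to 21 beta segments were called over 18 alternatives against 19 as reported, 18 to 21 when single libraries were left out, 17 with DESeq2 and 14 with gates of at least 2 UMIs. The 19 called segments kept their direction in all alternatives that tested them. The 0 calls between genotypes stayed 0 in every alternative run, which covered 3 comparisons in all cells and homo against WT in each gate and as the interaction. With the joint label added to TRBV13-2 (chosen after seeing the data) 19 calls remained.

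Trb genes called by expression numbered 4 with all barcodes of the matrices (Trbv1, Trbv14, Trbv15 and Trbv16) and 0 to 1 when single libraries were left out, and the cause was not tested. The CDR3 length difference over the genotype order in CD4 gated cells, -0.06 as reported, reversed to 0.11 with gates of at least 2 UMIs and ran from -0.146 to 0.0193 over libraries left out, the latter without WT replicate 1. The CD8 minus CD4 length difference reversed to -0.0338 with those gates. The causes were not tested. The difference in the unmatched middle fell to 0.12 with those gates, ran from 0.335 to 0.414 over libraries left out, and was 0.42 without het replicate 3 and homo replicate 1, where 5 libraries allow no p below 0.0625. Median lengths differed by 0 between genotypes and gates.

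Same-numbered libraries deviated together with r between -0.03 and 0.12. In a group of 2 libraries the deviations mirror each other, so this check could not exclude a pairing. With the replicate block 0 beta segments were called between genotypes and 1 Trb gene by expression, and without the library block 20 were called between gates. The CD4 gate, with 186 cells in the smallest library, limits what could be detected.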

Other observations

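V and J segments were also counted as pairs. Of 264 possible pairs 262 were seen, and of the 203 pairs with at least 50 cells expected from the V and J shares of each library, 170 lay within 0.8 to 1.25 times that number. The 5 most used pairs all held TRBJ2-7, with the joint label TRBV12-2+TRBV13-2 (1.84% of cells), TRBV3 (1.74%), TRBV5 (1.40%), TRBV16 (1.38%) and TRBV19 (1.18%). The pair TRBV3 with TRBJ1-6 was seen in 21 cells against 79.3 expected, and TRBV16 with TRBJ1-6 in 20 against 58.8, both below the expected number in 7 of 7 libraries. TRBV19 with the same TRBJ1-6 was seen in 101 cells against 62.2, above in 6 of 7, and TRBV12-1 with TRBJ1-2 in 119 against 77.8, above in 7 of 7. These ratios are descriptions, picked from the ends of the list.

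Invariant NKT cells carry an alpha chain of TRAV11 joined to TRAJ18 with a few preferred V beta segments. Of 18 such cells with a beta chain, 11 used TRBV13-2 (all under the joint label), TRBV29 or TRBV1, a share of 61.1% (exact 95% interval 35.7 to 82.7%, counting error only) against 20.4% among all cells. TRBV13-1 supplied 3 and TRBV12-1 2 of the others. In 17 of the 18 neither Cd4 nor Cd8 UMIs were found.

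Gated barcodes of the matrices that had no beta contig were also read, after those with a UMI of B cell genes such as Cd79a were left out. The main gates did not use that filter. These barcodes, 695 CD8 and 210 CD4, carried 633 and 176 Trbv UMIs. Of the 15 V segments called between the gates, 11 differed in the same direction in these UMIs. Trbv29 had 31 UMIs in CD8 and 0 in CD4 gated barcodes and Trbv12-1 39 and 3, while Trbv31 had 33 and 6, opposite to the contigs. One cell can give several UMIs, and these are given as values with no test.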
